A study of Arabidopsis thaliana with 12 samples.

Results

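The genes described here are 5 cell wall genes of Arabidopsis thaliana roots. EXPA4 and EXPA15 encode alpha-expansins, and XTH18, XTH19 and XTH20 encode xyloglucan endotransglucosylase/hydrolases. They were chosen by name as genes of wall loosening and growth, with earlier results of these data known. Each was matched to the array through the platform's gene table. All 5 genes had a named probe set, 1 per gene, out of 13286 genes with a named probe set and 22746 probe sets without the control probes. The roots came from 7-day-old seedlings, and 1 Affymetrix ATH1 array was hybridised per RNA sample. The 12 arrays formed 4 groups of 3. Col-0 and Col-3 were the wild types. The line ara1OX carried 35S:Ara1YFP, a fusion of ARABIDILLO-1 to yellow fluorescent protein, in the Col-0 background, where the 35S promoter is active in nearly all cell types. The line ara1/2mut was a double mutant of ARABIDILLO-1 and ARABIDILLO-2 in Col-3. Seed of all 4 groups was held for 2 days at 4 °C, and plants were raised at 24 °C in 16 h light and 8 h dark on agar medium. The labels do not state how many plants or independent lines went into a sample. They number the replicates without saying that these were separate cultures, so a p-value here reflects the spread of these arrays, and part or all of it may be technical.

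Plant cells enlarge when the wall yields to turgor. Expansins loosen the contacts between cellulose and other wall polymers at acid pH without cutting them, and they are best known for wall extension during acid growth. XTH enzymes cut a xyloglucan chain and join the cut end to another chain or to water, which remodels the tethers between cellulose microfibrils. XTH19 and XTH20 are also known from cut Arabidopsis stems, where they act in the cell proliferation that heals the wound. ARABIDILLO proteins carry an F-box and Armadillo repeats and promote the formation of lateral roots, a process in which overlying cells have to separate and yield. The question addressed was whether the root level of these wall genes differed when ARABIDILLO-1 was overexpressed or when both genes were mutated. The targeted genes themselves were not analysed here.

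Signals are linear intensities in arbitrary units, scaled by the authors to the same trimmed mean on each array. They can be compared between arrays for 1 probe set but not between probe sets. The median signal of an array lay between 37.7 and 42.6. All 5 genes passed the filter on dim probe sets and exceeded it, by 2.55-fold for XTH20 and by 10.0-fold to 27.1-fold for the other members. The control probe sets and the spread of each array around its group mean set some arrays apart. The residual spread on the log2 scale was 0.41 on ara1OX replicate 1, 0.39 on ara1OX replicate 3 and 0.37 on ara1/2mut replicate 1, against 0.23 to 0.29 on the other 9 arrays. The ratio of 3′ to 5′ actin signal was 25.2 on ara1/2mut replicate 1 and 7.12 to 17.1 on the other 11 arrays, lowest on ara1OX replicate 3. The mean log2 signal of the spike-in controls was 10.54 on ara1OX replicate 3 and 7.39 to 9.29 elsewhere. Of the 14 root markers listed only JKD, a transcription factor of the ground tissue, had a named probe set, with a signal of 30.0 to 92.0. Of the 8 shoot markers only RCA and LHCB4.1 had a named probe set. Their summed signal was 339 on ara1/2mut replicate 1 against 152 to 239 elsewhere. The excess lay in LHCB4.1, at 228 on that array against 74.7 to 135.5 elsewhere. RCA stood at 110.7 there, inside its range of 65.8 to 130.9 on the other arrays. Of 15 markers of dividing cells only MCM7, a subunit of the replicative helicase, had a named probe set. Its signal was 31.8 on ara1/2mut replicate 1 and 40.4 to 70.4 elsewhere.

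None of the 5 genes passed the test between any 2 genotypes. EXPA4, EXPA15 and XTH20 had lower mean log2 signals in both altered lines than in their wild types, by 0.28 to 0.45, and XTH18 and XTH19 did not. Apart from EXPA4 in ara1OX, where the groups did not overlap, each of these lower means came to 0 or above when 1 particular array was left out. For ara1OX against Col-0, 0 of 5 genes were called at a limma adjusted p under 0.05, where 0.022% of the 13648 probe sets tested were called. At an unadjusted p under 0.05 there were also 0 of 5, with 6.43% of all probe sets. For ara1/2mut against Col-3 the counts were 0 of 5 and 0 of 5, with 0% and 3.56% of all probe sets. Differences were below 0 in 3 of 5 genes in each line, and the same 3 genes were below 0 in both lines. Over all probe sets 55.4% were below 0 in ara1OX, 48.4% in ara1/2mut and 26% in both. The median difference of the 5 genes was -0.29 in ara1OX and -0.28 in ara1/2mut, beside -0.03 and 0.01 over all probe sets. Because whole roots were measured, fewer cells of a type and less RNA per cell cannot be told apart.

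**Figure D1:**
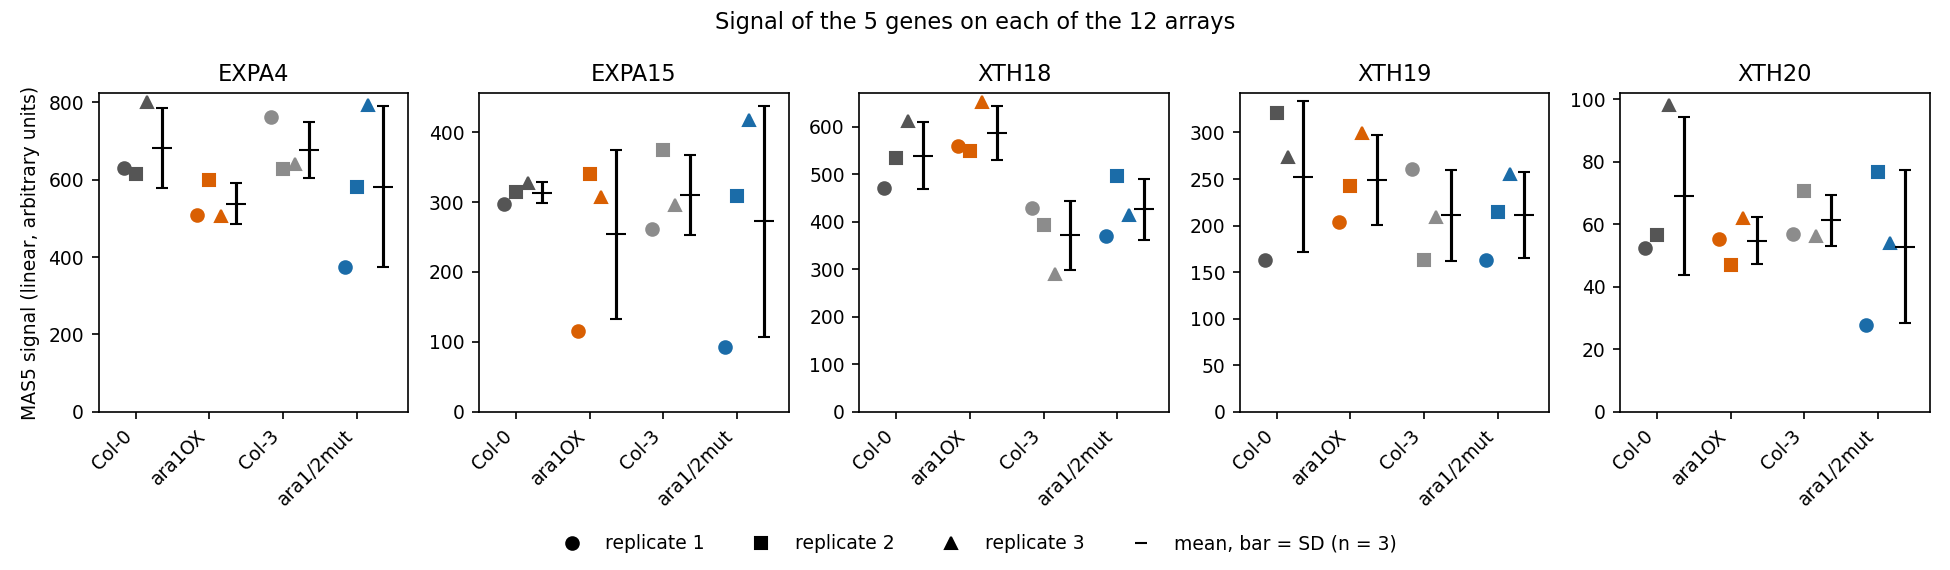
MAS5 signal (linear, arbitrary units) of the 5 genes on each of the 12 arrays, by genotype, with the replicate number as the symbol and the mean and SD of 3 arrays beside the points. EXPA15 stood at 116 on ara1OX replicate 1 and 92.4 on ara1/2mut replicate 1 and between 261 and 417 elsewhere, and the XTH18 points of Col-3 lay below those of Col-0 and ara1OX.

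EXPA15 (AT2G03090) gave the clearest split between arrays. Its signal was 297, 314 and 328 in Col-0 and 116, 339.8 and 307 in ara1OX. In Col-3 it was 261, 374 and 295, and in ara1/2mut 92.4, 309 and 417. In each altered line 1 array, replicate 1, lay far below the wild type, while the other 2 arrays lay among or above the wild-type values, so all groups overlapped. The group means were 313 ± 15.2 for Col-0, 254 ± 121 for ara1OX, 310.0 ± 57.8 for Col-3 and 273 ± 165 for ara1/2mut (SD, n = 3 each). The log2 difference was -0.45 (SE 0.45, limma adjusted p 0.898) in ara1OX, with a 95% interval of -1.40 to 0.50. In ara1/2mut it was -0.42 (SE 0.45, limma adjusted p 0.999), with an interval of -1.37 to 0.52. Each of these differences turned when its line's replicate 1 was left out, to 0.05 in ara1OX and to 0.23 in ara1/2mut. The residual SD of EXPA15 was 0.73 on the log2 scale, which ranked at percentile 99.3 among 1840 probe sets with a mean within 0.5 log2 units of its own. Their median SD was 0.22.

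The same pair of arrays was the lowest of the 12 for EXPA15 alone among the 5 genes. Over all probe sets tested, 5.3% had their 2 lowest arrays in ara1OX replicate 1 and ara1/2mut replicate 1. EXPB3, a beta-expansin gene outside the set of 5, stood at 261 and 192 on these arrays and at 336 to 517 on the other 10. Both arrays had a large residual spread, and ara1/2mut replicate 1 also had the high actin ratio and the high shoot marker sum, which came from LHCB4.1 and not RCA. The actin ratio of ara1OX replicate 1 was 14.0 and its shoot marker sum 230.2, which were inside the range of the other arrays. The part of these array properties in the EXPA15 values was not tested.

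EXPA4 (AT2G39700) was the only member whose ara1OX and Col-0 arrays did not overlap. Its signal was 631, 616 and 802 in Col-0 and 510.2, 599 and 506 in ara1OX. In Col-3 it was 761, 628 and 641, and in ara1/2mut 374, 580.4 and 793. All 3 ara1OX arrays lay below all 3 Col-0 arrays, which held for 6.57% of all probe sets, and below all 3 Col-3 arrays, which held for 8.71%. In ara1/2mut the arrays ran from the lowest of the 12 to the second highest and enclosed the range of Col-3. The means were 683 ± 103 for Col-0, 539 ± 52.5 for ara1OX, 677 ± 73.4 for Col-3 and 582 ± 209 for ara1/2mut (SD, n = 3 each).

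For EXPA4 the log2 difference in ara1OX was -0.34 (SE 0.22, limma adjusted p 0.833), a level 0.792 times that of Col-0, with a 95% interval of 0.577 to 1.09. Same-numbered comparisons gave -0.31, -0.04 and -0.66, below 0 as in 16.6% of all probe sets. With no overlap between these groups, no other sign was possible. The EXPA4 difference in ara1OX stayed between -0.42 and -0.22 in every alternative run, and the value nearest 0 came without Col-0 replicate 3. Among the ara1OX arrays replicate 3 had the lowest EXPA4 signal and the brightest spike-ins, and leaving it out gave -0.29. In ara1/2mut the difference was -0.28 (SE 0.22, limma adjusted p 0.999) and moved to 0.01 without ara1/2mut replicate 1. The mean of the effects of the 2 lines was -0.31 (SE 0.15, limma unadjusted p 0.0612, adjusted p 0.993).

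**Figure D2:**
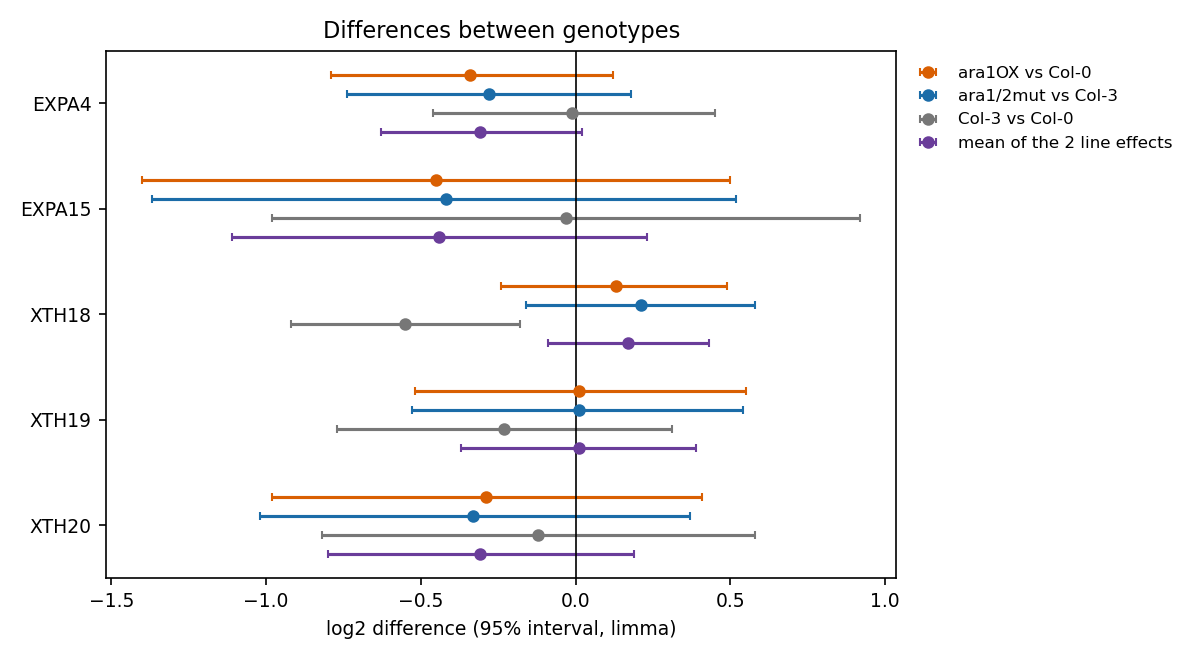
Differences between genotypes for the 5 genes on the log2 scale, with 95% intervals from the limma fit over 12 arrays. The intervals of the line effects all include 0, those of EXPA15 are the widest, and XTH18 in Col-3 against Col-0 is the single interval shown that lies below 0.

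XTH20 (AT5G48070) was the member nearest to the filter on dim probe sets. Its signal was 52.5, 56.4 and 98.2 in Col-0 and 55.2, 47.0 and 61.9 in ara1OX. In Col-3 it was 56.9, 70.6 and 56.2, and in ara1/2mut 27.6, 76.6 and 54.1. The low point was ara1/2mut replicate 1, the high point was Col-0 replicate 3, and all groups overlapped. The means were 69.0 ± 25.4 for Col-0, 54.7 ± 7.48 for ara1OX, 61.3 ± 8.12 for Col-3 and 52.8 ± 24.5 for ara1/2mut (SD, n = 3 each). The log2 difference was -0.29 (SE 0.33, limma adjusted p 0.912) in ara1OX and 0.00 without Col-0 replicate 3. In ara1/2mut it was -0.33 (SE 0.33, limma adjusted p 0.999) and moved to 0.08 without ara1/2mut replicate 1.

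The array ara1/2mut replicate 1 was the lowest of the 12 for EXPA4, EXPA15 and XTH20, that is for 3 of the 5 genes, as it was for 13.7% of all probe sets. For XTH18 and XTH19 it was not the lowest but was among the 3 lowest. Its signal there was 369.7 and 163.5, where the lowest array had 290.8 and 162.8. Without this array, 0 of the 5 genes had a difference below 0 in ara1/2mut. With replicate 1 of both altered lines left out, the mean of the 2 line effects was -0.15 for EXPA4, 0.14 for EXPA15 and -0.11 for XTH20. The corresponding values over all arrays were -0.31, -0.44 and -0.31.

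**Figure D3:**
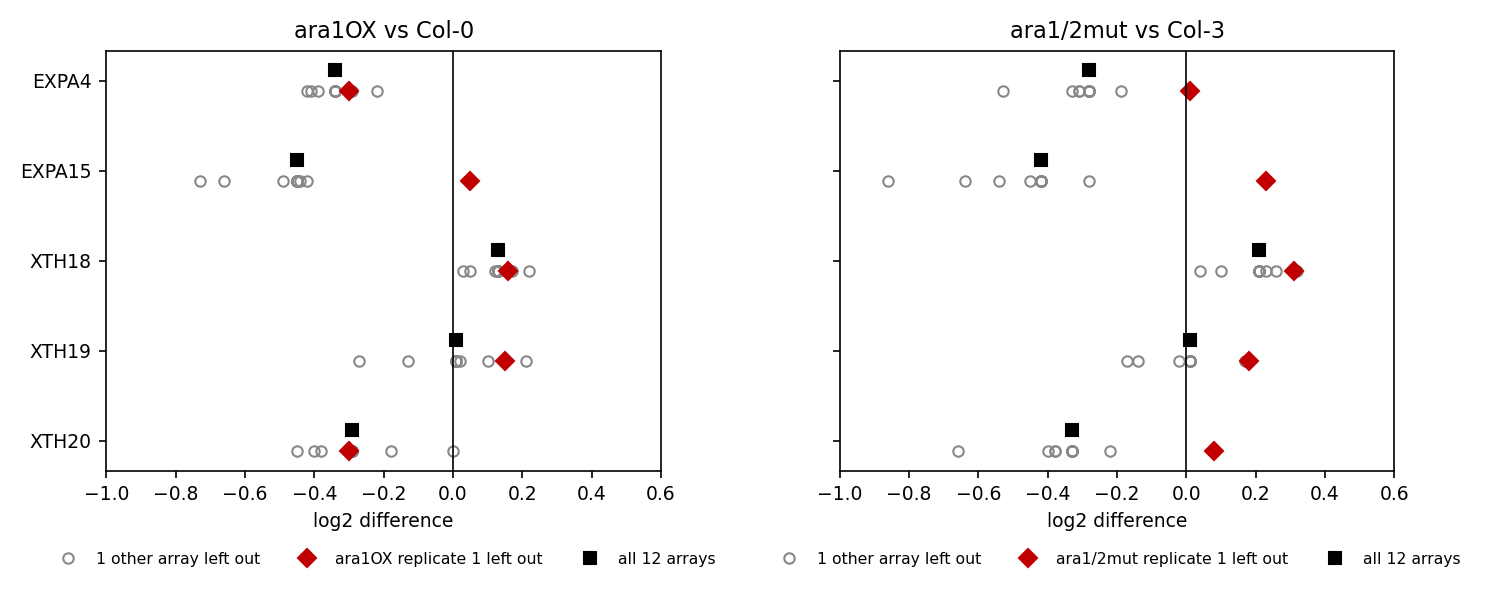
Log2 difference of each gene in ara1OX against Col-0 (left) and ara1/2mut against Col-3 (right) with all 12 arrays (squares), without replicate 1 of the altered line (diamonds) and without 1 other array (circles). Leaving out replicate 1 brought EXPA15 to 0.05 and 0.23. EXPA4 in ara1OX stayed below 0 in every fit, which followed from its groups not overlapping.

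XTH18 (AT4G30280) had lower mean signals in Col-3 and ara1/2mut than in Col-0 and ara1OX, but no difference passed the test. Its signal was 470.5, 534 and 612 in Col-0 and 558, 548 and 652 in ara1OX. In Col-3 it was 429, 392 and 291, and in ara1/2mut 369.7, 496 and 413. All 3 Col-3 arrays lay below all 3 Col-0 arrays, as for 7.1% of all probe sets. The ara1OX arrays all lay above those of ara1/2mut, as for 5.47%, and above those of Col-3, as for 7.88%. Only ara1/2mut replicate 2, at 496, lay above the lowest Col-0 array. The means were 539 ± 70.8 for Col-0, 586 ± 56.9 for ara1OX, 371 ± 71.8 for Col-3 and 426 ± 64.0 for ara1/2mut (SD, n = 3 each).

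The 95% intervals of the effects of both altered lines on XTH18 included 0. The log2 difference was 0.13 (SE 0.17, limma adjusted p 0.935) in ara1OX and 0.21 (SE 0.17, limma adjusted p 0.999) in ara1/2mut. These values were 0.03 without Col-0 replicate 1 and 0.04 without Col-3 replicate 3. Between the wild types, Col-3 was 0.55 lower on the log2 scale (-0.55, SE 0.17, limma unadjusted p 0.00595, adjusted p 0.913), a level 0.683 times that of Col-0 with a 95% interval of 0.530 to 0.881. Without Col-3 replicate 3 this difference was -0.38, and over all fits that left out 1 array it ran from -0.67 to -0.38. The difference between ara1OX and ara1/2mut was 0.47 (SE 0.17, limma adjusted p 0.393), that between ara1OX and Col-3 was 0.68 (SE 0.17, limma adjusted p 0.158), and that between ara1/2mut and Col-0 was -0.34 (SE 0.17, limma adjusted p 1.0).

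All 6 arrays of the Col-3 background were then compared with all 6 of the Col-0 background, a contrast added after the XTH18 values had been seen. XTH18 was -0.51 (SE 0.12) in that contrast, with a limma unadjusted p of 0.000786 and an adjusted p of 0.197, and it stayed between -0.57 and -0.43 when any 1 array was left out. In this contrast 0 of the 5 genes passed, beside 0.0147% of all probe sets. XTH18 was the single member under an unadjusted p of 0.05, beside 9.61%. The contrast compares groups that also differ in their altered genes, so it is not a comparison of wild types alone. Of 14 root hair markers only EXPA7 and EXPA18 had a named probe set. Their summed signal was 431 to 522 in Col-0, 529.5 to 635 in ara1OX, 346 to 439.7 in Col-3 and 401 to 526 in ara1/2mut. In the contrast of backgrounds EXPA18 had -0.37 (SE 0.12, limma adjusted p 0.335), EXPA7 -0.17 (SE 0.12, limma adjusted p 0.678), and the beta-expansin gene EXPB1 -0.46 (SE 0.15, limma adjusted p 0.349). Other genes went the other way, among them the beta-expansin gene EXPB2 at 0.55 (SE 0.22, limma adjusted p 0.463) and XTH32 at 0.43 (SE 0.17, limma adjusted p 0.462). Of 9 other expansin genes tested 5 were lower and 4 higher, and of 4 other XTH genes 2 were lower and 2 higher. The part of root hair content in the XTH18 values was not tested.

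XTH19 (AT4G30290) lies next to XTH18 in the gene order of the annotation, with XTH24 on the far side of XTH18. Its signal was 163, 320.5 and 274 in Col-0 and 203, 243 and 299.7 in ara1OX. In Col-3 it was 261, 163 and 209, and in ara1/2mut 164, 215 and 255. The arrays of each group spread over much of the full range, and every pair of groups overlapped. The means were 253 ± 80.8 for Col-0, 249 ± 48.4 for ara1OX, 211 ± 49.0 for Col-3 and 211 ± 46.0 for ara1/2mut (SD, n = 3 each).

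The log2 difference of XTH19 was 0.01 in ara1OX (SE 0.25, limma adjusted p 0.999) with a 95% interval of -0.52 to 0.55. In ara1/2mut it was 0.01 as well (SE 0.25, limma adjusted p 0.999), with an interval of -0.53 to 0.54. Both intervals hold values of 0.5 in either direction. Col-3 against Col-0 gave -0.23 (SE 0.25, limma adjusted p 0.992), and the contrast of backgrounds gave -0.24 (SE 0.18, limma adjusted p 0.699), below 0 as for XTH18, with intervals that include 0. The wild-type difference was -0.52 without Col-0 replicate 1 and -0.03 without Col-0 replicate 2. The residual SD of XTH19 was 0.37, against 0.22 for XTH18.

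By mean log2 signal the groups of the 5 genes ran in 3 orders. EXPA15 and XTH20 were highest in Col-0, followed by Col-3, ara1OX and ara1/2mut. EXPA4 ran from Col-0 through Col-3 and ara1/2mut to ara1OX, with Col-0 and Col-3 0.01 apart on the log2 scale. XTH18 and XTH19 were highest in ara1OX, followed by Col-0, ara1/2mut and Col-3. EXPA15 in ara1OX and ara1/2mut, and XTH19 in ara1OX and Col-0, were also only 0.01 apart, and by the mean linear signal these neighbours change places. No neighbours in any of these orders differed beyond their spread, and the smallest unadjusted p between neighbours was 0.0666, for XTH18 in Col-0 and ara1/2mut. In an F test of any difference among the 4 genotypes, 0 of the 5 genes passed, beside 0.044% of all probe sets. XTH18 had an unadjusted p of 0.00486 and a limma adjusted p of 0.414 in that test, beside 7.03% of all probe sets under an unadjusted 0.05. The adjusted p of the other members was 0.848 to 0.927.

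The remaining contrasts called none of the 5 genes either. Col-3 was below Col-0 in 5 of 5 genes, beside 50.4% of all probe sets, with differences of -0.03 for EXPA15, -0.01 for EXPA4 and -0.12 for XTH20. There 0 of 5 passed, beside 0%, and 1 of 5, XTH18, had an unadjusted p under 0.05, beside 5.08%. The difference between the effects of the 2 lines ran from -0.08 for XTH18 to 0.04 for XTH20, with SEs of 0.24 to 0.63. Calls there were 0 of 5 beside 0.0147%, and 0 of 5 had an unadjusted p under 0.05 beside 5.3%. The mean of the 2 line effects was 0.17 (SE 0.12) for XTH18 and 0.01 (SE 0.18) for XTH19, and 0 of 5 genes passed beside 0%, or 4.48% at an unadjusted p under 0.05. For ara1OX against ara1/2mut the calls were 0 of 5 beside 0.154%, and XTH18 alone had an unadjusted p under 0.05, beside 9.94%. For ara1OX against Col-3 they were 0 of 5 beside 0.234%, with XTH18 alone under an unadjusted 0.05, beside 10.4%. For ara1/2mut against Col-0 they were 0 of 5 beside 0%, and 0 of 5 beside 3.56% without adjustment.

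Across the 12 arrays, 10 pairs of the 5 genes were compared on the log2 scale. EXPA4 and EXPA15 had the highest correlation, with Pearson's r 0.75 (permutation p 0.00539, adjusted over 10 pairs 0.0539) and Spearman's rho 0.43 (permutation p 0.168, adjusted 0.637). Without the 2 arrays farthest from the median of EXPA4, ara1/2mut replicate 1 and Col-0 replicate 3, r was 0.51, and without ara1/2mut replicate 1 alone it was 0.49. The relation thus rested in good part on that array. With deviations from the group means it was 0.72.

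XTH18 and the adjacent gene XTH19 had r 0.53 (permutation p 0.0732, adjusted 0.183) and rho 0.55 (permutation p 0.0657, adjusted 0.637). Without the 2 arrays farthest in XTH18 r was 0.54, and within groups it was 0.48. XTH20 had r 0.66 with EXPA4 (permutation p 0.0281, adjusted 0.14) and 0.62 with EXPA15 (permutation p 0.0464, adjusted 0.155). Without the 2 farthest arrays r was -0.19 and 0.04. Without ara1/2mut replicate 1 alone it was 0.26 and 0.16, so both relations rested in good part on that array. Leaving out ara1OX replicate 1 alone raised r of XTH20 with EXPA15 to 0.73. Within groups r was 0.61 with EXPA4 and 0.57 with EXPA15. The other 6 pairs had r between 0.02, for EXPA4 and XTH18, and 0.40. Among them XTH18 and XTH20 had r 0.69 within groups, and 0.52 without the 2 arrays farthest in XTH18. Without the 2 farthest arrays of the first gene, XTH19 and XTH20 had 0.59 and EXPA4 and XTH18 -0.60. No pair had an adjusted p under 0.05. The arrays shared scaling and the same genotypes in each pair.

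**Figure D4:**
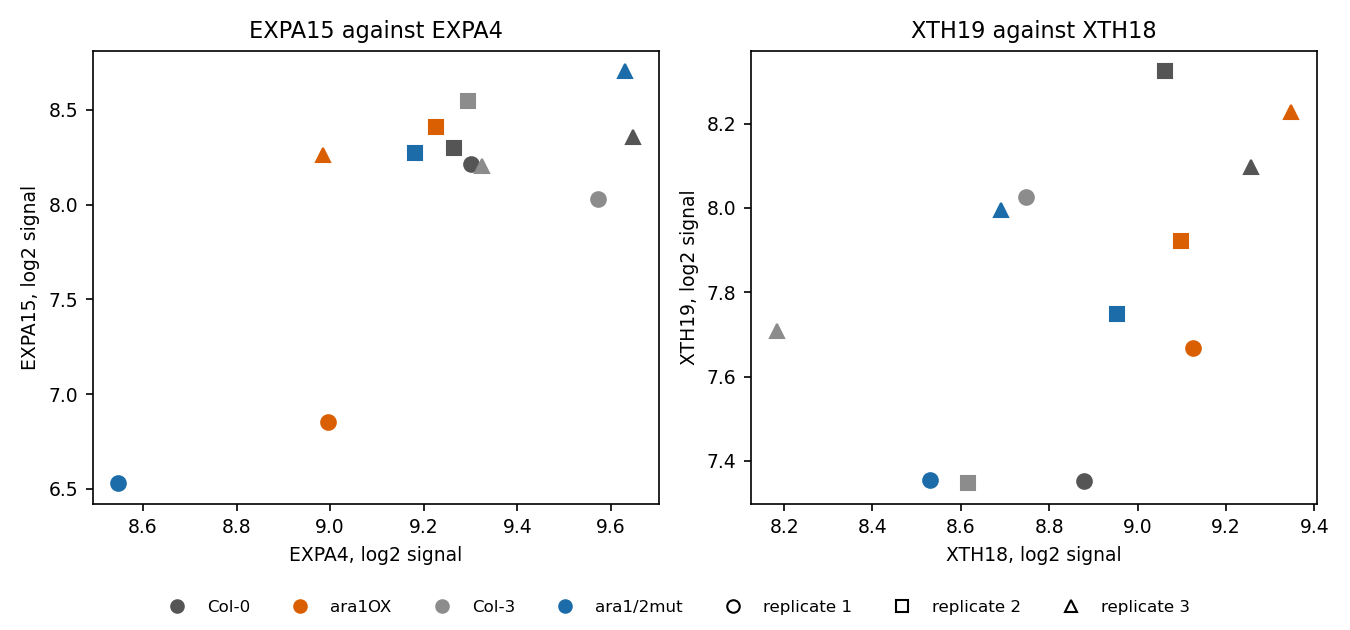
Log2 signal of EXPA15 against EXPA4 (left) and of XTH19 against XTH18 (right) on 12 arrays, with the genotype as colour and the replicate number as symbol. In the left panel replicate 1 of ara1/2mut and of ara1OX lie apart from the other 10 arrays, and in the right panel the arrays form 1 scatter.

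The genes whose profile over the 12 arrays was most like each member were taken from 7321 probe sets with 1 gene symbol, by Pearson's r of log2 signal and as a description. For EXPA4 they were AT3G27230, GH9B8 and AT5G26830, each with r 0.89. GH9B8 belongs to glycosyl hydrolase family 9, a family of endoglucanases. For EXPA15 the nearest were AT4G10320 with 0.96, AT3G12900 with 0.95 and AT1G01080 with 0.94. On ara1/2mut replicate 1, EXPA15's nearest gene AT4G10320 had its lowest signal, 239.6, against 403 on ara1/2mut replicate 3. On replicate 1 of ara1OX and of ara1/2mut, AT3G12900 had 3.85 and 2.56, under the filter signal of 22.4, against 24.5 to 116 elsewhere. AT1G01080 had 17.8 and 18.6 on them, against 27.6 to 47.2 elsewhere. These are the 2 lowest arrays of EXPA15, and r without them was not computed. For XTH18 they were AT3G05910 with 0.95, AT4G26010 with 0.91 and AT3G52470 with 0.89. XTH19 was most like AT3G53430 with 0.91, and WLIM2a and AT1G14220, both with 0.89. XTH20 was most like AT4G39830 with 0.90, and AT5G49560 and AT5G11980, both with 0.89. No member was among the 3 nearest genes of another.

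Of 33 other expansin genes listed, 16 were named on the array and 9 were bright enough to be tested. None of the 9 passed the limma test in either altered line. In ara1OX 4 were lower and 5 higher, from -0.31 to 0.81 with a median of 0.09. In ara1/2mut 4 were lower and 5 higher, from -0.43 to 0.37 with a median of 0.11. EXPA8, at 1.31-fold over the filter, had the 0.81 (SE 0.74, limma adjusted p 0.892) and the -0.43 (SE 0.74, limma adjusted p 0.999). In ara1OX, EXPA7, an expansin gene of root hairs, had 0.37 (SE 0.17, limma adjusted p 0.774), and EXPA18, also of root hairs, had 0.25 (SE 0.17, limma adjusted p 0.854). All 3 EXPA7 signals of ara1OX, 291, 266 and 255, lay above those of Col-0, 204, 221 and 205, as for 4.87% of all probe sets. In ara1/2mut EXPA7 had 0.13 and EXPA18 0.24 (SE 0.17 each, limma adjusted p 0.999 each). The beta-expansin genes EXPB1 and EXPB3 had opposite signs in ara1OX, with 0.45 (SE 0.21, limma adjusted p 0.774) for EXPB1 and -0.31 (SE 0.27, limma adjusted p 0.886) for EXPB3. In ara1/2mut they had 0.11 (SE 0.21) and -0.35 (SE 0.27), and EXPB3 moved to 0.09 there without ara1/2mut replicate 1.

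Among 30 other XTH genes listed, 7 were named on the array, 4 were bright enough to be tested, and none passed. XTH32 had the largest difference of the 4 in ara1OX, at -0.60 (SE 0.24, limma unadjusted p 0.0236, adjusted p 0.683). Its signal was 54.8, 54.7 and 58.1 in Col-0 and 33.0, 37.7 and 39.98 in ara1OX, without overlap and lower in ara1OX, as for 6.57% of all probe sets. In ara1/2mut XTH32 had 0.41 (SE 0.24, limma adjusted p 0.999), and the difference between these effects was -1.01 (SE 0.34, limma unadjusted p 0.0092, adjusted p 0.878). XTH16 and XTH33 had 0.21 and 0.27 in ara1OX and -0.45 and -0.24 in ara1/2mut, and XTH27 had -0.14 and -0.09. The adjusted p of these values lay between 0.683 and 0.999 for the list as a whole.

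**Figure D5:**
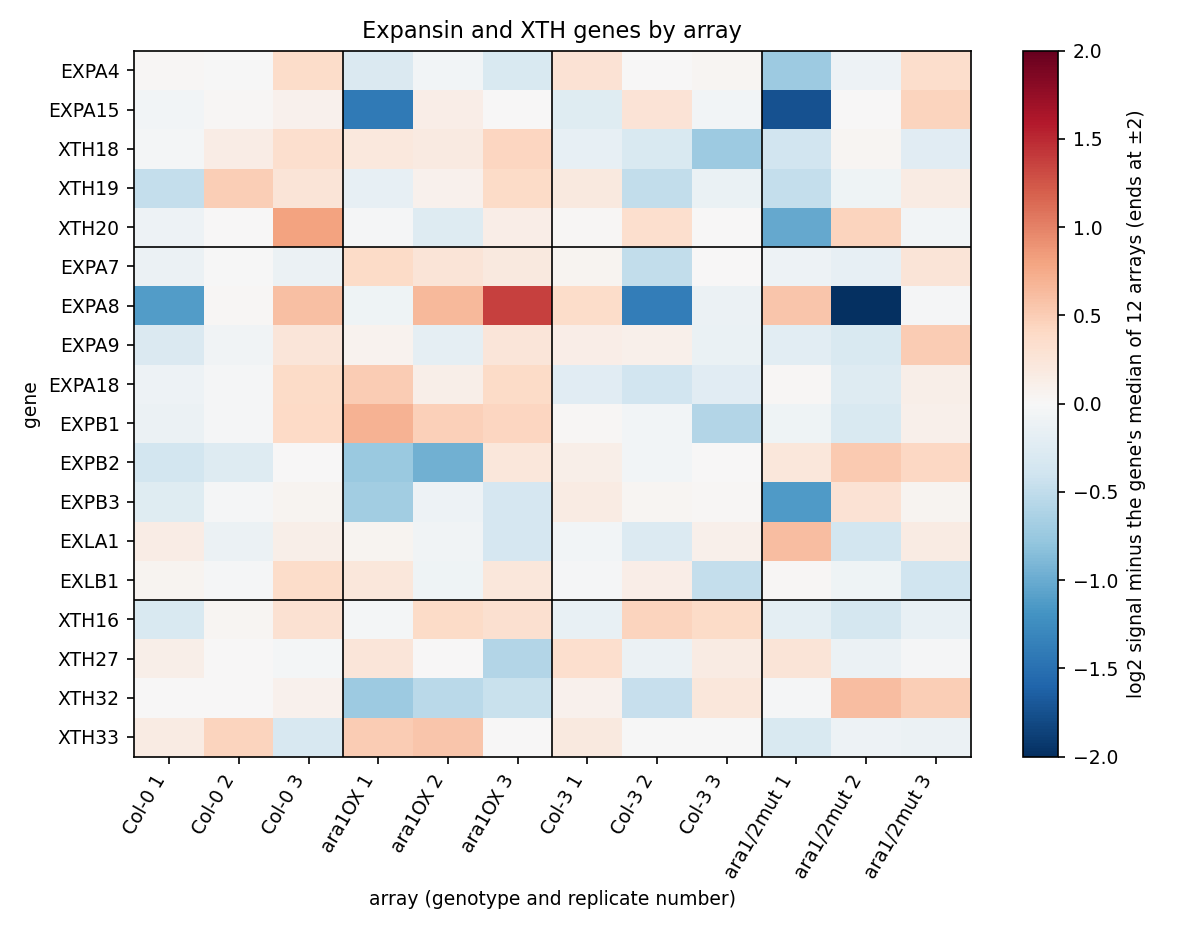
Log2 signal minus each gene's median of 12 arrays for the 5 genes (top block), the 9 other expansin genes (middle) and the 4 other XTH genes (bottom) that passed the filter, with the colour scale ending at 2 on either side. EXPA15 and EXPB3 were low on replicate 1 of ara1OX and ara1/2mut, XTH32 was low on the 3 ara1OX arrays, and EXPA8 on ara1/2mut replicate 2 lay beyond the lower end of the scale.

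Of 18 genes of xyloglucan synthesis and trimming 5 were named and 3 passed the filter, all of them CSLC genes, which encode synthases of the glucan backbone. None passed the test. CSLC5 had 0.56 in ara1/2mut (SE 0.19, limma unadjusted p 0.0108, adjusted p 0.999) and -0.06 in ara1OX (SE 0.19, limma adjusted p 0.98). Its signals were 59.3, 55.4 and 48.9 in Col-3 and 78.4, 76.9 and 86.2 in ara1/2mut. All 3 ara1/2mut arrays lay above all 3 of Col-3, as for 5.08% of all probe sets. Of 15 genes of cellulose synthesis and acid growth, only FER and THE1, both receptor kinases that sense the wall, had a named probe set. They had 0.00 and 0.32 in ara1OX and 0.07 and 0.11 in ara1/2mut, and neither passed. None of 20 listed genes of auxin and brassinosteroid response had a named probe set.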

How the data were processed

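Root RNA was measured on 12 ATH1 arrays, 3 in each of 4 genotypes grouped by their titles. The authors deposited linear intensities made with MAS5, per the submitters' processing notes. Every array had a trimmed mean of 100.0 after leaving out 2% at each end. No background or scaling step was repeated. Detection calls were not used here, and no depth applies to arrays, so their number limits the precision.

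From 22810 probe sets 64 controls were left out, and a filter at the 40th percentile of mean log2 signal (4.49, a signal of 22.4) kept 13648 for testing. One model with a mean per group was fitted in limma 3.58.1 (R 4.3.3) with a variance trend. Residual degrees of freedom were 8, and prior ones 7.49. All tests were two-sided, with Benjamini-Hochberg adjustment over all probe sets and a threshold of 0.05. Pairs of genes were compared by permutation with 100000 resamples. The procedure was tested on simulated data, for limma with independent noise and planted changes larger than any difference of the members. That test did not cover differences of their size.

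The platform's gene annotation lists 14016 probe sets, of which 13436 matched 13286 genes of assembly TAIR10.1, used for names and gene order. Of 165 listed genes 34 had a named probe set. The members and lists were chosen with earlier results of these data known. Named genes were the members, the 3 nearest genes of each, and up to 4 genes per list with the smallest p in the mean of the line effects. EXPA8 and EXPB2 are named beside these. CSLC4 and CSLC6 are given by count, and the markers by signal. The alternatives were other normalizations, filters, array weights, variances without a trend, a pseudocount of 16, fits of the compared groups alone, the replicate number as a block, and leaving out arrays.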

Additional observations from a re-analysis of the deposited data

How the results depend on the processing

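The count of 0 of 5 genes called held in all 10 comparisons under every alternative run. Over the whole table, counts of called probe sets moved with the setting, from 3 to 17 in ara1OX against Col-0, 0 to 4 in ara1/2mut against Col-3, 0 to 2 in Col-3 against Col-0, 0 to 2 for the difference between the line effects, 0 to 1 for their mean, 4 to 48 in ara1OX against ara1/2mut, 2 to 132 in ara1OX against Col-3, 0 to 1 in ara1/2mut against Col-0, 0 to 68 between backgrounds and 4 to 65 in the F test. With the replicate number as a block, ara1OX against Col-0 had 17 called probe sets, and no member was called. Every group held each replicate number, so the block could not move a group difference, and EXPA4 had to stay at -0.34. The deviations of same-numbered arrays had r of 0.033 to 0.256 between a line and its wild type, and -0.082 to 0.019 between the wild types. Some of these fell under the minimum of 0.1 set for pairing, so the block result is given once only.

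Leaving out arrays, in all fits that drop 1, gave ranges that crossed 0 for these results. For ara1/2mut against Col-3 they were -0.53 to 0.01 (EXPA4), -0.86 to 0.23 (EXPA15), -0.17 to 0.18 (XTH19), -0.66 to 0.08 (XTH20), -0.04 to 0.23 (EXPA7), -0.08 to 0.22 (EXPB1), -0.62 to 0.09 (EXPB3), -0.22 to 0.01 (XTH27) and -0.03 to 0.16 (FER). For ara1OX against Col-0 they were -0.73 to 0.05 (EXPA15), -0.27 to 0.21 (XTH19), -0.32 to 0.10 (XTH27) and -0.19 to 0.07 (CSLC5). For Col-3 against Col-0 they were -0.09 to 0.11 (EXPA4), -0.17 to 0.09 (EXPA15) and -0.29 to 0.16 (XTH20). The difference between the line effects ran from -0.34 to 0.20 (EXPA4), -0.68 to 0.47 (EXPA15), -0.20 to 0.08 (XTH18), -0.28 to 0.21 (XTH19) and -0.37 to 0.37 (XTH20), and the mean effect from -0.13 to 0.11 (XTH19). The r of EXPA4 with XTH18 ran from -0.32 to 0.16 and that of EXPA15 with XTH18 from -0.21 to 0.29. The count of pairs with an adjusted permutation p under 0.05 ran from 0 to 1, and was 1, EXPA4 with EXPA15, also with median centring.

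Omitting replicate 1 of both altered lines, chosen after seeing the data, gave for ara1OX 0.05 (EXPA15) and 0.07 (CSLC5), and for ara1/2mut 0.01 (EXPA4), 0.23 (EXPA15), 0.08 (XTH20) and 0.09 (EXPB3). The mean effect of EXPA15 was then 0.14, and the difference between the line effects -0.03 (XTH19) and -0.38 (XTH20). Without all 4 arrays numbered 1, also chosen after seeing the data, ara1OX gave 0.01 (EXPA15) and -0.14 (XTH19), and ara1/2mut gave 0.10 (EXPA4), 0.11 (EXPA15), 0.03 (XTH20) and 0.13 (EXPB3). Col-3 against Col-0 gave 0.05 and the mean effect 0.06 for EXPA15, and the difference between the line effects -0.48 (XTH19) and -0.50 (XTH20).

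Array weights turned EXPA4 in Col-3 against Col-0 to 0.02, XTH19 in ara1OX to -0.12 and its mean effect to -0.06, CSLC5 in ara1OX to 0.06, and the difference between the line effects to -0.11 (XTH19) and -0.40 (XTH20). Median centring turned that difference to 0.02 for EXPA15 and XTH19 in ara1/2mut to -0.01. The cause of these turns was not tested. The XTH18 differences between wild types and between backgrounds, and the EXPA4 difference in ara1OX, kept their sign in every alternative. So did the smaller XTH18 differences in the lines, at 0.03 to 0.22 in ara1OX and 0.04 to 0.42 in ara1/2mut. The mean effects of EXPA4, XTH18 and XTH20 kept theirs as well. XTH19 in Col-3 against Col-0 also did, but ran from -0.68, without all 4 arrays numbered 1, to -0.03. A kept sign was in part fixed in advance. Leaving out arrays could not turn EXPA4 in ara1OX or XTH18 between wild types, whose groups did not overlap. The same held for XTH18 between backgrounds, as its ara1OX and ara1/2mut arrays did not overlap either. Filters, the variance trend, fits of the compared groups alone and the replicate block leave a log2 difference unchanged here. With 3 arrays a group, intervals as wide as those of EXPA15 leave its direction unsettled.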
